A study of Mus musculus with 27 samples.

Results

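Pdxdc1, Cbfa2t2, Klf13, Tbc1d15, Cop1 and AI506816 are genes for which the probe sets of an array gave different answers on how the brains of 2 mouse strains, DBA and C57, differ. They are 6 of the 8251 named genes on the array and 6 of the 2073 named genes read by 2 or more probe sets. All 13 probe sets annotated to them, dim ones included, are described here. The genes were picked for their DBA minus C57 differences on the same 9 arrays, so these differences are given as a description, and where a call from a fit over all sets is mentioned for them, nothing is read from it. A probe set is a group of short oligonucleotides that together report 1 stretch of RNA, and its value is a fluorescence intensity. Each array carried RNA from the whole brain of 1 animal number, 4 DBA and 5 C57. The mice were 10 weeks old and untreated. The labels write the strains as DBA/2J and C57BL/2, and give the sex of the C57 mice (male) and not that of the DBA mice. A whole brain mixes all regions and cell types, and fewer cells of a type cannot be told apart from less RNA per cell.

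The 6 genes have no common pathway. Pdxdc1 encodes a protein with a pyridoxal-dependent decarboxylase domain. Cbfa2t2 (also MTGR1) encodes a corepressor of the MTG or ETO family, which does not bind DNA itself and brings histone deacetylases to transcription factors. Klf13 encodes a zinc finger factor of the SP and KLF family, which binds GC-rich promoter elements. Tbc1d15 encodes a GTPase-activating protein for Rab7, the small GTPase of late endosomes and lysosomes. Cop1 (also Rfwd2) encodes a RING-type ubiquitin ligase that works with DET1 and the CUL4 complex and marks transcription factors such as c-Jun for degradation. AI506816 is listed by RefSeq as a long non-coding RNA, and no role is given to it here. Of the 13 probe sets, 11 have the plain suffix at and 2 the suffix r_at, which the array maker used where its rules for choosing probes could not all be kept.

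On the 9 arrays, median intensity lay between 159.6 and 197.75, and log2 values of any pair of arrays had a correlation of 0.945 to 0.970 (over probe sets, not independent replicates). Snap25, a gene of nerve terminals, read 15349.5 to 21136.4 in DBA and 14792.7 to 18629.9 in C57 brains. The set of the liver gene Alb stayed at or below 74.5 in DBA and 83.1 in C57 brains. As a sign of RNA quality, the 3′ control set of Gapdh over its 5′ set gave a log2 ratio that ran from -0.44 to -0.32 in DBA and from -0.29 to -0.19 in C57, with no overlap. The beta-actin ratio ran from 0.52 to 0.66 in DBA and from 0.50 to 0.91 in C57, with overlap. Overlap was also seen for the transferrin receptor (1.61 to 1.86 in DBA, 1.70 to 2.00 in C57). The same held for pyruvate carboxylase (0.57 to 0.77 in DBA, 0.57 to 1.22 in C57). The part of these control ratios in the results was not tested. A probe set with a mean below an intensity of 35.4 belongs to the dimmest 25% of the array, and this value is called the brightness limit below.

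Pdxdc1 had 3 probe sets that did not point the same way. Set 97713_at read 1859.5, 1479.7, 1621.1 and 1488.5 in DBA animals 1 to 4, against 12.3, 13.9, 27.3, 18.8 and 7.3 in C57 animals 1 to 5. All 5 C57 animals lay under the brightness limit and all DBA animals far above it. Set 160163_at went the other way, with 78.2, 59.7, 18.3 and 63.1 in DBA against 625.0, 599.1, 617.3, 527.3 and 551.0 in C57. Set 94312_at read 71.7, 74.3, 116.8 and 93.0 in DBA against 431.4, 439.7, 388.5, 497.9 and 484.1 in C57. At all 3 Pdxdc1 sets the strains did not overlap. The log2 difference, DBA minus C57, was 6.79 ± 0.34 (standard error, 4 DBA and 5 C57 animals, as for all such differences below) at 97713_at. It was -3.60 ± 0.38 at 160163_at and -2.36 ± 0.16 at 94312_at. As ratios of geometric means, 97713_at was 111-fold higher in DBA, 160163_at 12.1-fold lower and 94312_at 5.12-fold lower. With the C57 mean of 97713_at raised to the brightness limit, its ratio was 45.3. The reading of 18.3 in DBA animal 3 was the only member value of a DBA animal under the brightness limit, and without this animal 160163_at was 8.76-fold lower in DBA.

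Cbfa2t2 differed between the strains at its dimmer set and hardly at its brighter one. Set 98371_at read 113.5, 99.8, 110.6 and 99.5 in DBA against 22.3, 38.5, 34.9, 16.0 and 17.3 in C57. The DBA values lay within a narrow band above every C57 value, and 4 of 5 C57 animals were under the brightness limit. Set 97406_at read 858.7, 755.8, 636.4 and 783.7 in DBA against 788.5, 690.7, 793.8, 665.4 and 673.3 in C57, so that the strains overlapped. The log2 differences were 2.13 ± 0.28 at 98371_at (4.37-fold higher in DBA, or 2.98-fold with the C57 mean at the brightness limit) and 0.07 ± 0.12 at 97406_at. RefSeq also lists a Cbfa2t2 pseudogene, Cbfa2t2-ps1, on chromosome 5. Whether a Cbfa2t2 set reads this copy was not tested.

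Klf13 was higher in DBA at 103369_at and slightly lower at 160617_at. Set 103369_at read 508.9, 618.0, 1952.9 and 474.2 in DBA against 144.9, 242.6, 102.4, 124.1 and 218.6 in C57. Every DBA animal was above every C57 animal, and DBA animal 3 stood above the rest. Set 160617_at read 1138.6, 1082.1, 1327.5 and 1062.8 in DBA against 1386.3, 1308.7, 1291.5, 1321.0 and 1332.0 in C57. The strains overlapped at this set because DBA animal 3 lay among the C57 animals. The log2 difference was 2.22 ± 0.45 at 103369_at (4.66-fold higher in DBA, or 3.36-fold without DBA animal 3) and -0.21 ± 0.10 at 160617_at.

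Tbc1d15 was lower in DBA at 103471_at, while at 104283_at the strains differed by less than the spread of the animals. Set 103471_at read 104.6, 100, 65.7 and 116.9 in DBA against 561.4, 520.8, 514.9, 448.0 and 397.7 in C57, with no overlap. Set 104283_at read 1007.3, 782.3, 734.9 and 734.9 in DBA against 707.9, 808.2, 730.9, 767.0 and 840.1 in C57, with the strains mixed apart from the high DBA animal 1. The log2 differences were -2.36 ± 0.19 at 103471_at (5.12-fold lower in DBA) and 0.07 ± 0.13 at 104283_at. Both sets were above the brightness limit in every animal.

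Cop1 showed the smallest split among the 6 genes by the size of the differing set. Set 95437_at read 184.5, 165.5, 164.9 and 187.7 in DBA against 363.8, 491.5, 454.6, 426.5 and 457.6 in C57, and the strains did not overlap. Set 98379_r_at read 457.5, 701.0, 501.8 and 581.8 in DBA against 488.5, 566.0, 442.6, 476.6 and 522.8 in C57, and the strains overlapped. The log2 differences were -1.32 ± 0.12 at 95437_at (2.49-fold lower in DBA) and 0.15 ± 0.15 at 98379_r_at. No Cop1 value of either set was under the brightness limit.

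The long non-coding RNA gene AI506816 was higher in DBA at its dim set. Set 93180_at read 150.5, 197.4, 135.6 and 198.6 in DBA against 15.7, 9.9, 11.7, 20.3 and 46.6 in C57. All DBA animals were above all C57 animals, of which 4 were under the brightness limit and animal 5 was not. Set 97197_r_at read 869.0, 635.0, 893.5 and 489.3 in DBA against 1132.8, 1192.9, 926.4, 580.4 and 850.7 in C57, with overlap. The log2 differences were 3.25 ± 0.42 at 93180_at (9.52-fold higher in DBA, or 4.75-fold with the C57 mean at the brightness limit) and -0.37 ± 0.26 at 97197_r_at. The annotation lists no source sequence for these sets or for 94312_at of Pdxdc1, and it lists one for the other 10 sets of the 6 genes.

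**Figure D1:**
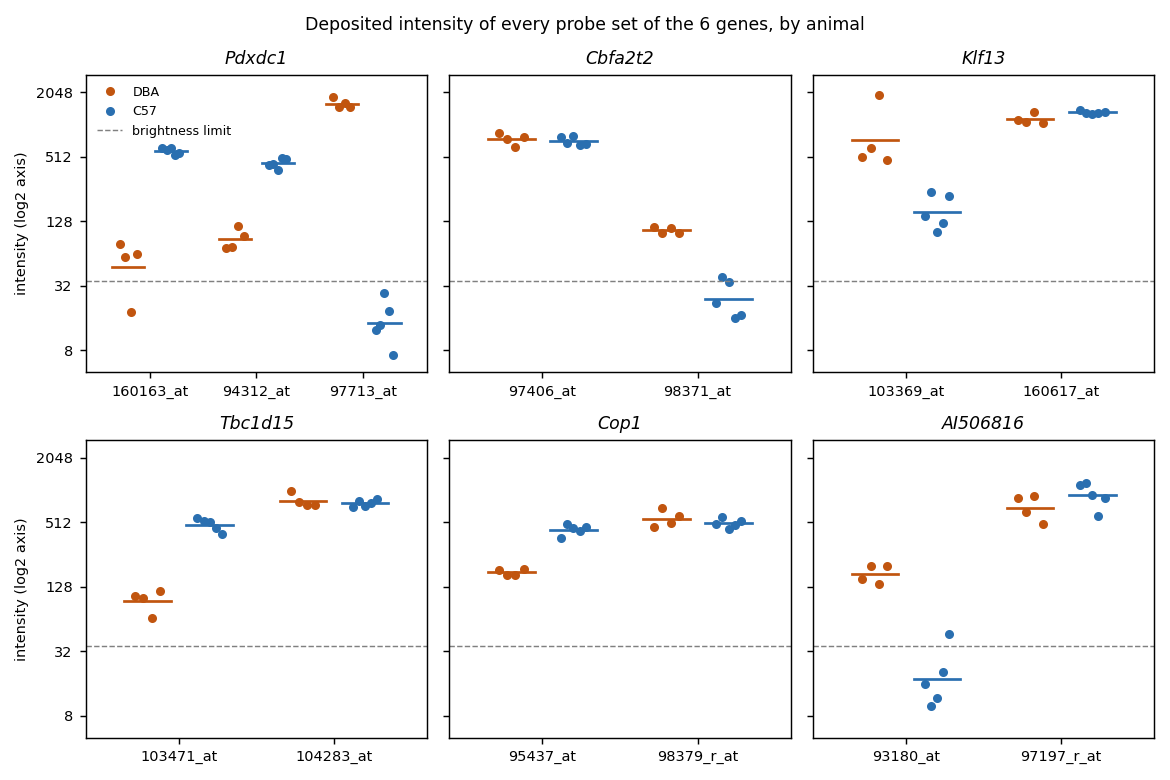
Deposited intensity (log2 axis) of each probe set of the 6 genes, 1 point per animal (4 DBA, left, and 5 C57, right), with bars at the geometric means and a dashed line at the brightness limit of 35.4. Each panel holds at least 1 set whose strains do not overlap, and 5 of the 6 panels hold a second set whose strains overlap.

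Of the 13 sets, 8 passed an adjusted p under 0.05 in the limma fit over all 9316 probe sets brighter than the limit, where 2.50% of sets passed. Of these 8, 4 were higher in DBA (0.891% of all sets) and 4 lower (1.61%). The same 8 sets had no overlap between the strains, as had 6.45% of all sets. Because the genes were picked on this contrast, these counts follow from the choice. All 13 sets passed the brightness filter, but 97713_at, 98371_at and 93180_at passed it through their DBA level, as their C57 means were below the limit.

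Setting the sets of a gene against each other within each array takes out what an array does to both. The level of such a ratio has no meaning of its own, since different probes bind with different strength, and only its change between animals is read. The log2 ratio of 160163_at over 97713_at of Pdxdc1 was -4.57, -4.63, -6.47 and -4.56 in DBA animals 1 to 4, against 5.67, 5.43, 4.50, 4.81 and 6.24 in C57 animals 1 to 5. The ratio of 94312_at over 97713_at lay between -4.70 and -3.79 in DBA and between 3.83 and 6.05 in C57. Both Pdxdc1 ratios were lower in every DBA animal than in any C57 animal, by more than the whole spread within either strain. The 160163_at over 94312_at ratio, between the Pdxdc1 sets that were both lower in DBA, overlapped between the strains, at -2.67 to 0.13 in DBA and 0.08 to 0.67 in C57.

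For Cbfa2t2 the log2 ratio of 97406_at over 98371_at was 2.92, 2.92, 2.52 and 2.98 in DBA against 5.14, 4.17, 4.51, 5.38 and 5.28 in C57. For Klf13 that of 103369_at over 160617_at was -1.16, -0.81, 0.56 and -1.16 in DBA against -3.26, -2.43, -3.66, -3.41 and -2.61 in C57. The Klf13 ratio was highest in DBA animal 3. The Tbc1d15 ratio of 103471_at over 104283_at ran from -3.48 to -2.65 in DBA and from -1.08 to -0.33 in C57. The Cop1 ratio of 95437_at over 98379_r_at ran from -2.08 to -1.31 in DBA and from -0.43 to 0.04 in C57. The AI506816 ratio of 93180_at over 97197_r_at ran from -2.72 to -1.30 in DBA and from -6.91 to -4.19 in C57. In none of these 5 genes did the ratio overlap between the strains.

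**Figure D2:**
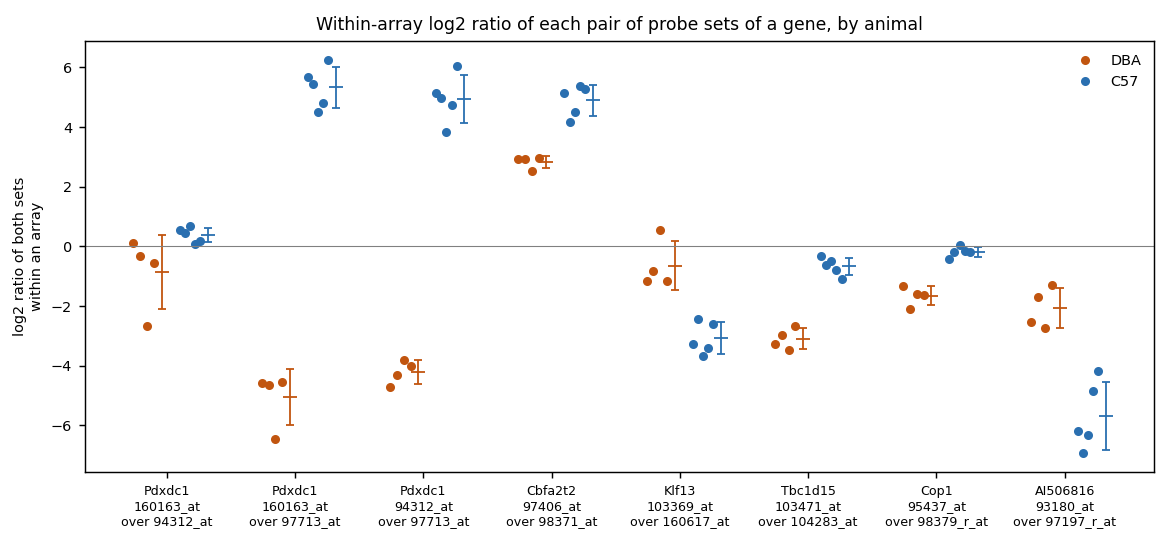
Log2 ratio of both probe sets of each of the 8 same-gene pairs within an array, 1 point per animal (DBA left, C57 right), with the mean and SD beside the points. The strains are apart in 7 of the 8 pairs and overlap for 160163_at over 94312_at of Pdxdc1.

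The difference of the ratio, DBA minus C57, was -10.39 ± 0.47 and -9.15 ± 0.39 for the Pdxdc1 pairs with 97713_at. It was 3.63 ± 0.55 for AI506816, 2.43 ± 0.39 for Klf13, -2.43 ± 0.22 for Tbc1d15, -2.06 ± 0.27 for Cbfa2t2 and -1.47 ± 0.18 for Cop1. Where a C57 mean lay under the brightness limit, raising it to the limit gave -9.10 and -7.86 for these Pdxdc1 pairs, 2.62 for AI506816 and -1.51 for Cbfa2t2. For 160163_at over 94312_at of Pdxdc1 it was -1.24 ± 0.48, or -0.63 without DBA animal 3. Among all 1798 pairs of probe sets with the same gene name and both brighter than the limit, from 1299 genes, the median size of the difference was 0.20. In the limma fit over all pairs 46 of the 1798 (2.56%) passed an adjusted p under 0.05, 7 of the 8 pairs described here among them. It did not overlap between the strains for 96 pairs (5.34%), again including 7 of these 8. Since the genes were picked for this disagreement, these counts follow from the choice, and nothing is read from them.

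In 72 of the 1798 pairs 1 set was called and the other not, in 14 both were called the same way and in 2 both were called opposite ways. Both pairs called opposite ways were those of Pdxdc1 with 97713_at, and 1 of the 14 was the remaining Pdxdc1 pair. Each of the other 5 genes gave 1 of the 72 pairs. In all 5 the called set was the dimmer of the pair, with each set taken in the strain where it was brighter. Over all 72 pairs, these 5 included, the called set was the dimmer in 39 (54.2%). The 5 genes were picked on the contrast that gave these calls, so nothing is read from this comparison. By mean brightness over the 9 arrays, the called sets of these 5 genes stood above 28.7% (98371_at), 29.2% (93180_at), 55.6% (103471_at), 59.7% (95437_at) and 61.2% (103369_at) of all sets, and their partners above 71.7% to 87.3%. The Pdxdc1 sets stood above 42.7% (97713_at), 51.8% (160163_at) and 54.1% (94312_at). A mean over both strains ranks a set lower where 1 strain reads low, as at 97713_at (geometric mean 1605 in DBA and 14.5 in C57). By suffix, 2.48% of the 7502 tested at sets were called and 0.215% of the 466 tested r_at sets, 1 set. Both r_at sets of the 6 genes, of Cop1 and AI506816, were the uncalled partners of at sets.

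**Figure D3:**
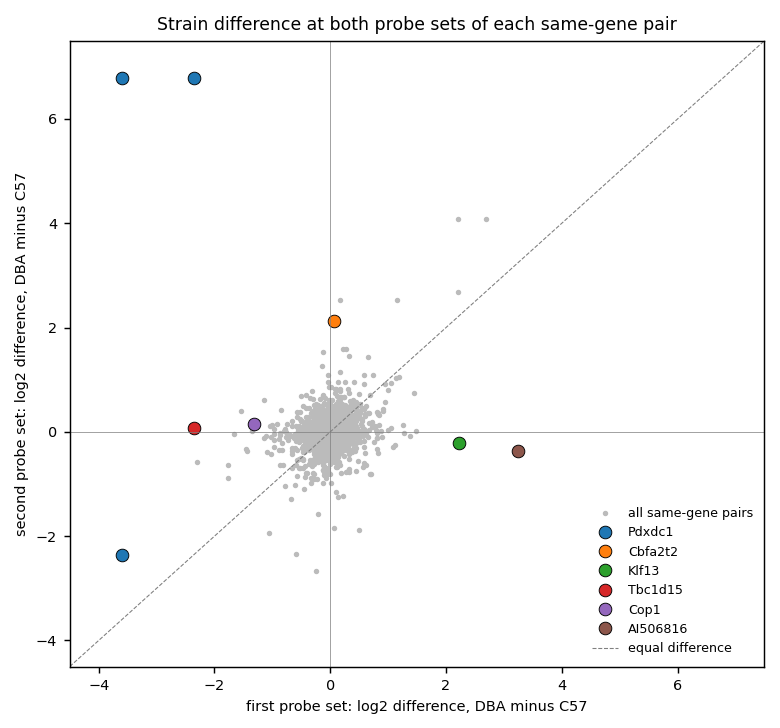
Log2 difference, DBA minus C57, at the first against the second probe set of every same-gene pair (1798 grey points), with the 8 pairs of the 6 genes in colour and a dashed line where both sets differ equally. The 5 genes with 2 sets lie near 1 of the axes, and 2 of the 3 Pdxdc1 points lie in the upper left, where the sets differ in opposite directions.

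How far the sets of a gene moved together among animals of the same strain does not use the strain difference, and was tested. Each animal's deviation from its strain's mean was taken at both sets, and the 9 deviations were correlated, with animals reordered within strain in every possible way (exact permutation, 2-sided). P-values were adjusted over the 8 pairs. None of the 8 pairs passed an adjusted p under 0.05 by Pearson's r or by Spearman's rho, while 1 pair by r (160163_at and 94312_at of Pdxdc1) and 2 by rho (that pair and AI506816) had an unadjusted p under 0.05. The sampling of 9 animals leaves wide room around each r, so a lack of movement together is not shown either. In the pairs with 97713_at of Pdxdc1, 98371_at of Cbfa2t2 and 93180_at of AI506816, the readings of 5, 4 and 4 C57 animals in that order were under the brightness limit, so r there rests largely on dim readings.

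For the Pdxdc1 sets that were both lower in DBA, 160163_at and 94312_at, r was -0.84 (exact permutation p = 0.0122, adjusted 0.0972) and rho -0.82 (p = 0.0132, adjusted 0.106). DBA animal 3 had the lowest 160163_at (18.3, under the brightness limit) and the highest 94312_at among DBA animals, and weighed on this value. Without this animal r was -0.62, and it was -0.43 without DBA animals 1 and 3, the farthest from the median of 160163_at. The pairs with 97713_at gave r of 0.05 (160163_at, exact p = 0.712, adjusted 0.940) and -0.29 (94312_at, exact p = 0.257, adjusted 0.513). Both Klf13 sets were highest among DBA brains in DBA animal 3, with r = 0.78 (exact p = 0.108, adjusted 0.432) and rho = 0.68 (exact p = 0.0747, adjusted 0.199). Without DBA animal 3 alone, r of the Klf13 pair was 0.08 (exact permutation p = 0.885). It was 0.87 without C57 animal 2 alone and 0.48 without both, so the size of r depends on both animals.

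For the AI506816 sets r was -0.49 (exact p = 0.229, adjusted 0.513) and rho -0.75 (exact p = 0.0306, adjusted 0.122). The r of AI506816 was -0.69 without C57 animals 2 and 5. The Cbfa2t2 pair had r = 0.28 (exact p = 0.391, adjusted 0.626), the Tbc1d15 pair 0.04 (exact p = 0.940, adjusted 0.940) and the Cop1 pair 0.03 (exact p = 0.916, adjusted 0.940). Over the 1798 same-gene pairs of the array, the median r of such deviations was 0.14, with quartiles at -0.22 and 0.45. The median over the 8 pairs was 0.04. These pairs share arrays and their scaling, which moves all sets of an array together.

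**Figure D4:**
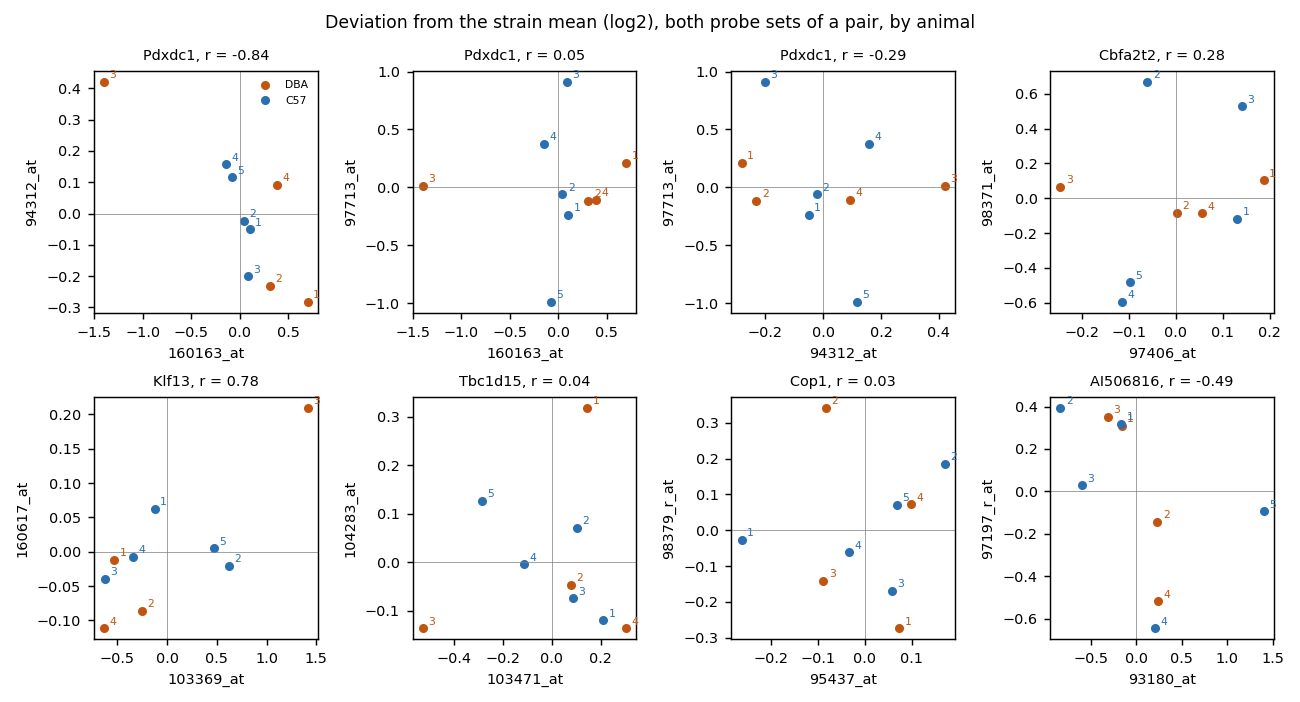
Deviation of each animal from its strain's mean (log2) at the first (x axis) and second (y axis) probe set of each of the 8 pairs, with animal numbers beside the points (DBA and C57 by colour) and Pearson's r over 9 animals above each panel. Only Klf13 (0.78) and the first Pdxdc1 panel (-0.84) have an r beyond 0.5 in size, and DBA animal 3 is the farthest point in both.

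The spread among animals of a strain differed widely between sets of the same gene. For Klf13 the SD within strain was 0.74 on the log2 scale at 103369_at, above 95.3% of all tested sets, and 0.10 at 160617_at, above 4.50%. For Cbfa2t2 it was 0.44 at 98371_at and 0.15 at 97406_at, and for AI506816 it was 0.69 at 93180_at and 0.41 at 97197_r_at. The Tbc1d15 sets had 0.28 (103471_at) and 0.16 (104283_at). In Klf13 and Tbc1d15 the set that differed between the strains varied more in both strains. In Cbfa2t2 and AI506816 it did so only in C57, where most of its readings were under the brightness limit. Within DBA alone the SD was 0.10 at 98371_at and 0.18 at 97406_at of Cbfa2t2, and 0.28 at 93180_at and 0.41 at 97197_r_at of AI506816. Within C57 it was 0.58, 0.13, 0.88 and 0.41 at the same 4 sets. Cop1 was the other way round over both strains pooled, with 0.14 at 95437_at and 0.20 at 98379_r_at. For Cop1 this held in DBA (0.10 and 0.27 in that order) and not in C57 (0.16 and 0.13). The Pdxdc1 sets had 0.62 (160163_at), 0.24 (94312_at) and 0.55 (97713_at). DBA animal 3 lay farthest from the DBA mean at 7 of the 13 sets, against 3, 1 and 2 sets for DBA animals 1, 2 and 4. For C57 animals 1 to 5 and the C57 mean, the counts were 2, 2, 3, 2 and 4. The 13 sets share arrays, and the share over all sets is not given here, so nothing is read from these counts.

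For each gene, the set with the largest strain difference was set against all other named sets over the 9 arrays. Such likeness rests mostly on the shared strain difference and is a description. Most like 97713_at of Pdxdc1 were Cap1 (r = 0.99) and the Gnb1 set 94853_at (0.99), both higher in DBA. The Gnb1 set 94854_g_at (0.98) and Shoc2 (0.97) were most like 98371_at of Cbfa2t2. Spg21 and Cpsf2 (1.00 and 0.99) were most like 103471_at of Tbc1d15, and Ift27 and Prdx2 (0.99 and 0.98) most like 95437_at of Cop1. Alad (0.97) and Pih1d1 (0.96) were most like 93180_at of AI506816.

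The genes most like 103369_at of Klf13 were Prkcd (r = 0.99), a protein kinase C, and Ddhd2 (0.97), a phospholipase. Prkcd read 1246.3, 1228.4, 1521.9 and 1202.5 in DBA animals 1 to 4, and 946 to 1118.3 in C57 animals. Ddhd2 read 701.7, 760.9, 965.8 and 759.3 in DBA, and 480.6 to 618.9 in C57. Both were highest in DBA animal 3, as 103369_at was. On deviations from the strain means alone, r with 103369_at was 0.98 for Prkcd and 0.87 for Ddhd2. For the genes picked for the other members, such r ran from 0.24 (Gnb1 set 94853_at) to 0.94 (Gnb1 set 94854_g_at). Prkcd and Ddhd2 were picked by r over these same arrays, DBA animal 3 included, so a high r follows in part from the choice. Without DBA animal 3, r over the remaining 8 arrays, with the strain difference kept in, was 0.98 for Prkcd and 0.94 for Ddhd2.

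Genes that lie next to the 6 were compared between the strains by the same limma fit, since they were not chosen by their values. By gene order in RefSeq (GRCm38.p6), the 3 nearest genes with a tested set on each side of each gene gave 36 genes and 40 sets. Of these 36 genes 2 were called, both lower in DBA, while 2.80% of all named genes had a called set. Phlda1, which encodes a pleckstrin homology-like domain protein, is the third on 1 side of Tbc1d15 on chromosome 10. It read 91.4, 93.7, 68.5 and 90.6 in DBA against 508.4, 350, 301.6, 262 and 393.3 in C57, a log2 difference of -2.05 ± 0.19 (limma adjusted p = 0.000317). The Phlda1 strains did not overlap, and its nearer neighbours Krr1 and Atxn7l3b were not called (-0.02 ± 0.16 and -0.21 ± 0.12 at their first sets).

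Mtmr10, a myotubularin-related gene near Klf13 on chromosome 7, read 143.6, 118.7, 163.2 and 176.3 in DBA against 301.3, 221, 296.7, 213.7 and 242.6 in C57. Its log2 difference was -0.76 ± 0.16 (limma adjusted p = 0.0340). This was opposite in direction to 103369_at of Klf13 and the same in direction as 160617_at of Klf13 (-0.21 ± 0.10). Mtmr10 was no longer called when any of DBA animals 1, 2 and 3 or of C57 animals 1, 2, 3 and 5 was left out (limma adjusted p 0.0508 to 0.103), nor with dim sets kept in the fit (0.0702). None of the 24 genes beside Pdxdc1, Cbfa2t2, Cop1 and AI506816 was called by limma at a set past the brightness filter. Of these genes, 3, 1, 0 and 0 in that order had an unadjusted p under 0.05. Over all 36 neighbours this was 6, against 962 of all 6864 named genes.

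Partners and relatives of the proteins were taken as 5 lists and read from the same fit, in which the shares over all named genes are those given for the neighbours. In these lists 1 gene was called by limma. Junb, an AP-1 factor of the Jun family that Cop1 is known to act on through c-Jun, was among 13 tested genes of the Cop1 ligase and its substrates. At 102362_i_at it averaged 268 ± 46.6 in DBA and 143 ± 27.1 in C57 (SD), a log2 difference of 0.91 ± 0.18 (limma adjusted p = 0.0285). Junb was no longer called when any of DBA animals 1, 3 and 4 or of C57 animals 1 and 3 was left out (limma adjusted p 0.0591 to 0.0977), nor at its brightest set. In this list 2 genes had an unadjusted p under 0.05, and the median difference of the brightest sets was 0.08, against 0.01 over all named genes.

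Among 9 tested genes of pyridoxal-dependent decarboxylases, their relatives (Azin1 and Sgpl1) and vitamin B6 enzymes, limma called 0. Of these genes 1 had an unadjusted p under 0.05, Hdc, which makes histamine (-0.59 ± 0.24, limma adjusted p = 0.341). Of 13 genes around the MTG corepressors, DNA-binding factors such as Tcf4 included, limma called 0, with 3 at an unadjusted p under 0.05. The smallest limma p was that of Sin3b at 93790_at (0.38 ± 0.11, adjusted p = 0.154), against 0.06 ± 0.13 at its brighter set 93789_s_at. Of 12 other SP and KLF factors limma called 0, with 3 at an unadjusted p under 0.05, led by Klf5 (0.44 ± 0.12, adjusted p = 0.132). Of 10 TBC-domain and Rab7 pathway genes it called 0, with 2 at an unadjusted p under 0.05, led by Tbc1d1, which acts on glucose transporter traffic (0.38 ± 0.10, adjusted p = 0.125). The medians of the brightest sets were 0.02, -0.07, 0.04 and -0.02 in the order of these 4 lists.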

How the data were processed

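Whole brain RNA of 4 DBA and 5 C57 animal numbers on 9 arrays was used. The intensities were deposited by the authors on a linear scale, and per the labels cRNA came from 5 ug of total RNA. The scanner software is not given in the sources used here, nor is the normalization. After trimming 2% of the values at either end, the mean of each array lay between 499 and 500, so arrays had been scaled to 1 target. The table has 12488 probe sets, 66 of them array controls. A second platform (18 arrays with a letter in their titles) lists 3 of the 6 genes, but its gene names were unrelated in level to those used here (Spearman rho 0.002 over 5826 shared names), and it was not used further.

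Intensities under the 1st percentile (1.70) were raised to it, which moved 0.978% of the values, and log2 was taken. The dimmest 25% of sets were left out of tests. Strains were compared by limma 3.58.1 (R 4.3.3, functions lmFit and eBayes), 2-sided, with Benjamini-Hochberg adjustment over all 9316 sets or 1798 pairs and a threshold of 0.05. Differences of member sets are from a fit without the filter. Symbols came from the platform annotation, updated through RefSeq (GRCm38.p6). Genes were named as members, as the 2 most like each gene's most different set, as called neighbours, and as up to 4 called members of each list or the one with the smallest p. Snap25 and Alb were chosen after their values were seen, and so were the neighbours named beside Phlda1. The members, lists and tests were chosen with earlier results of these data known. The labels do not say whether animals were pooled, so p-values measure the spread between these samples. Precision is limited by how many arrays there are. The fits and the permutation test were tested on simulated data. Alternatives were other scaling, floors and filters, another variance model, the animal number as a block, and leaving out each animal.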

Additional observations from a re-analysis of the deposited data

Results flagged for a closer look

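Among 42 groups of 4 or 5 animals (member sets and within-array ratios by strain), 2 held an animal far from the others by Dixon's criterion, which flags about 1 in 20 groups by chance. A count of 2 in 42 is near that rate. Both flagged animals were DBA animal 3. At Pdxdc1 its log2 ratio of 160163_at over 97713_at was -6.47, against -4.63 to -4.56 in the other DBA animals. Its 160163_at reading was 18.3, under the brightness limit. At Cbfa2t2 its log2 ratio of 97406_at over 98371_at was 2.52, against 2.92 to 2.98. Neither ratio overlapped with the C57 animals with or without DBA animal 3.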

How the results depend on the processing

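The log2 differences of the 13 sets and of the 8 pair ratios moved by less than 1 SD between animals under quantile normalization, median centring, a floor at the 5th percentile, the animal number as a block and without any 1 animal, and no called one changed sign. The member calls held less well, as 103369_at of Klf13 was not called with no filter or with the replicate block. Nor did it pass when the array of C57 1, C57 3, C57 4 or DBA 2 was dropped singly. In each of these settings 7 of the 13 sets were called, against 8. Of the 8 pairs, 5 were called with the replicate block, against 7. With the dimmest 50% left out, 97713_at, 98371_at and 93180_at were not tested. Over all sets, 233 were called, against 150 at an adjusted p under 0.01 and 73 with the replicate block. Over all pairs, 46 were called, against 30 with no filter on dim sets, 23 at an adjusted p under 0.01, 9 with the replicate block and 29 to 45 without 1 animal (29 without DBA animal 2). The 1 called list gene, Junb, was 0 with no filter or with the replicate block, and 0 to 1 without 1 animal. The 2 called neighbours became 1 with the replicate block and 1 to 3 without 1 animal, and Phlda1 was called in every one of these settings. With no filter the count stayed at 2 although Mtmr10 was lost (adjusted p = 0.0702), as Mapre1, a neighbour of Cbfa2t2, was called at a set too dim for the filter (adjusted p = 0.00113). Within-strain correlation was called for 0 of 8 pairs, and for 0 to 1 without 1 animal. The called case was 160163_at and 94312_at of Pdxdc1 without DBA animal 4 (r = -0.93), where the sets moved in opposite directions. The r of this pair was -0.63 with median centring. The cause of these changes was not tested. The animal numbers did not pair the strains: same-numbered deviations correlated at -0.17 to -0.01 across sets, and 0 of 8 samples correlated best with their own number. At 97713_at, 98371_at and 93180_at most or all C57 readings lie under the brightness limit, and the files used hold no background or detection call for them.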
